A study of Homo sapiens with 3 samples.

Results

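The heat shock chaperones examined here were 10 genes chosen by name, HSPA1A, HSPA1B, HSPA8, HSPH1, DNAJB1, BAG3, HSP90AA1, HSPB1, HSPD1 and HSPE1, out of 52992 genes summed from the transcript tables. HSPA1A and HSPA1B, which encode essentially the same protein, were also taken as a sum. RNA was sequenced from TE5, an established human esophageal squamous cell carcinoma line. The cells carried short hairpin RNA against KLF5, a Krüppel-like transcription factor of dividing epithelial cells (shKLF5, 2 libraries), or a scrambled control (scramble, 1 library). Both kinds of cells were harvested 48 h after transfection, and no other treatment, allele or selection is named. The labels number the shKLF5 libraries 1 and 2 and do not say whether these are separate hairpins or separate cultures. Every p-value below therefore measures only the spread between those 2 libraries, which may be technical, and the lone scramble library, which has no replicate, is assumed to vary as they do.

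Chaperones bind unfolded stretches of other proteins and, through cycles of ATP, release them for folding, transport or destruction. HSP70 proteins receive their clients from J proteins and are reset by nucleotide exchange factors, HSP90 takes over signalling kinases and receptors, small heat shock proteins hold clients without ATP, and the HSP60 and HSP10 pair folds proteins in a closed chamber inside mitochondria. When unfolded protein builds up, the transcription factor HSF1 forms trimers and binds heat shock elements, repeats of the unit NGAAN in alternating orientation, upstream of these genes. Carcinoma cells commonly carry high levels of chaperones, and HSP70 and HSP27 are also constitutive in stratified squamous epithelium.

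Libraries held 33544752 and 32720563 estimated counts in shKLF5 and 33448976 in scramble. At that similar depth, 19304 and 19422 genes reached 10 counts in shKLF5 against 16920 in scramble. The part of this difference in the results below, among them the scaling and the genes of low counts, was not tested. KLF5 itself had 1333 and 1531 counts in the shKLF5 libraries against 8402 in scramble, a log2 fold change of -2.96 (SE 0.34), with an adjusted p of 0.182 by edgeR and 1.51e-06 by DESeq2. All 10 squamous epithelial markers reached 10 counts, so the line carried the RNA its label names, but their summed level was 1121 and 607 TPM (a level per transcript length with 1 fixed total per library) in shKLF5 against 3688 TPM in scramble. Of 6 fibroblast, 6 leukocyte, 4 endothelial and 5 glandular markers, 5, 4, 2 and 0 reached 10 counts in any library. Their summed levels were 26.3 and 15.4 against 16.7 TPM for fibroblasts, 2.36 and 3.12 against 0.527 for leukocytes, 1.09 and 1.36 against 0.324 for endothelium, and 0.081 and 0 against 0.109 for glands, with 2 glandular markers at 0 throughout. The part of the lower squamous markers in the chaperone results was not tested. In bulk RNA, fewer cells of a type and less RNA per cell cannot be told apart.

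Heat shock element letters stand in the promoter windows of several of these genes, and the stretches that hold them are shown here because such elements are the known binding sites of HSF1. RefSeq promoter windows on GRCh38.p14, from 250 bases before to 50 after each start, were found for all 10 genes, 14 windows in all. They were searched on both strands for 2 inverted units (GAANNTTC or TTCNNGAA, each its own reverse complement) and for 3 (GAANNTTCNNGAA or its reverse complement TTCNNGAANNTTC), and a site of 3 units always contains 2 overlapping sites of 2. Of all 35116 windows, 13.5% held a site of 2 units and 0.49% a site of 3. Among the 10 genes, 7 had a site of 2 units in a window and 3 had a site of 3 units. Counted by window, as for those shares, these were 8 and 3 of the 14 windows. Positions are relative to the RefSeq start, and capitals mark the unit letters. The first pair is given at greater length to show how alike the upstream regions of HSPA1A and HSPA1B are, 79 aligned bases being identical, 1 different and 2 opposite a gap.
HSPA1A, chr6:31815383-31815463, plus strand, -160 to -80: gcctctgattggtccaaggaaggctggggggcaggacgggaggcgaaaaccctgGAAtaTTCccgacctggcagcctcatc
HSPA1B, chr6:31827578-31827658, plus strand, -160 to -80: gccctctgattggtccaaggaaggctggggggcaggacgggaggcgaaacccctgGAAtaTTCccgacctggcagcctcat
The sites of 3 units were these, that of HSP90AA1 being followed by a further site of 2 units. The HSPA8 window holds another site of 3 units at -230 to -218, not printed, and the 3-unit sites of HSPD1 are a pair that overlap.
HSPA8, chr11:123062171-123062198, minus strand: gggccccTTCtgGAAggTTCtaagatag
HSP90AA1, chr14:102087105-102087132, minus strand: TTCcgGAAggTTCgggaggcTTCtgGAA
HSPD1, chr2:197500063-197500090, minus strand: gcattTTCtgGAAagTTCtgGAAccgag
Sites of 2 units only were found for DNAJB1, which has 3 of them in its windows, and HSPB1, which has 1.
DNAJB1, chr19:14518457-14518484, minus strand: gggcggggcgGAAggTTCtggagggggc
HSPB1, chr7:76302481-76302508, plus strand: cttaacgagaGAAggTTCcagatgaggg
The printed stretches of HSPA1A, HSPA1B, DNAJB1 and HSPB1 lie upstream of the start of the transcript with most counts, while that of HSP90AA1 lies downstream of the start of HSP90AA1-201. No site stood in the windows of HSPH1, BAG3 or HSPE1. The HSPE1 window begins at 197500129, however, so the printed stretch of HSPD1, which ends at 197500090, lies just outside it. That stretch is upstream of the start of HSPE1-202 and downstream of that of HSPE1-201. The RefSeq start of HSPH1 lay 461 bases from that of HSPH1-201, the transcript with most of its counts, so that window does not cover its main start. The same holds for HSPE1-201, 385 bases from the RefSeq start of HSPE1, and for HSPA8-201, 804 bases from that of HSPA8.

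**Figure D1:**
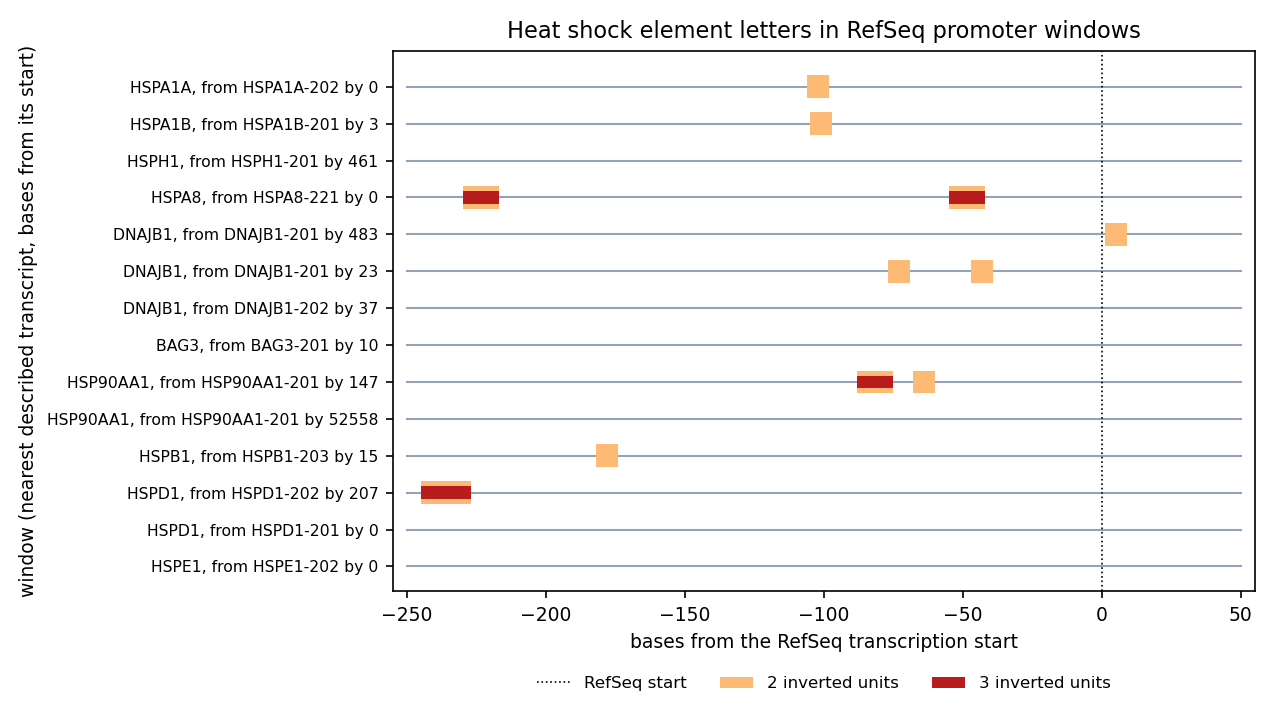
Positions of heat shock element letters in the 14 RefSeq promoter windows of the 10 genes (x axis, bases from the RefSeq start; each row 1 window, with the nearest described transcript and its distance in bases). Pale blocks are sites of 2 inverted units and dark blocks sites of 3, which occur in HSPA8, HSP90AA1 and HSPD1.

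Levels of the 10 genes spanned more than 2 orders of magnitude per length, but only through HSPA1A. How its reads were divided from those of HSPA1B cannot be checked, and the next lowest gene in scramble, BAG3, stood at 38.4 TPM. In scramble the order from high to low was HSPA8, HSPB1, HSP90AA1, HSPD1, HSPE1, HSPA1B, HSPH1, DNAJB1, BAG3 and HSPA1A, with 966 TPM for HSPA8 and 1.82 TPM for HSPA1A. Together the 10 genes made up 0.34% and 0.25% of all estimated counts in shKLF5 libraries 1 and 2 against 0.37% in scramble, and their TPM summed to 2496 and 1666 against 2604. HSPA8 stood above HSPB1 and DNAJB1 above BAG3 in every library, although the ranges of those neighbours over the shKLF5 libraries overlapped. HSP90AA1 and HSPD1 changed places between the shKLF5 libraries, as did HSPA1B and HSPH1, so their order was not settled. Library 2 stood below library 1 for 9 of the 10 genes on the scaled log2 values, HSPD1 being the exception, while 49.7% of all genes tested stood below library 1 there.

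**Figure D2:**
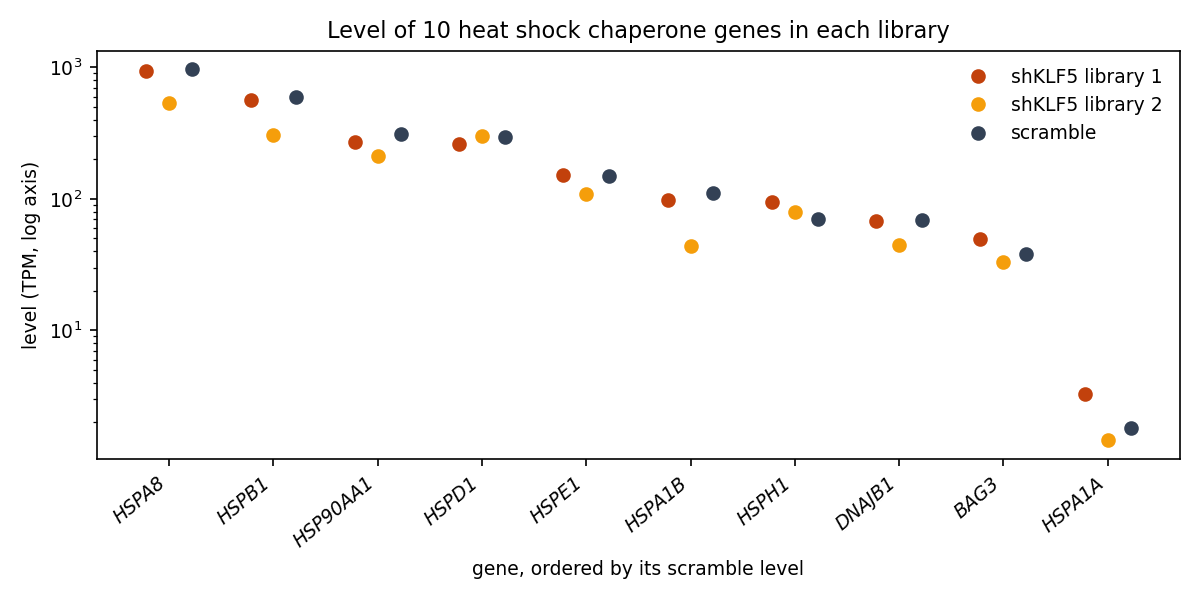
Level of each gene (y axis, TPM on a log axis) in shKLF5 library 1, shKLF5 library 2 and scramble, with genes ordered by their scramble level. HSPA1B stands at 97.6 and 44.1 TPM in shKLF5 against 112 TPM in scramble, whereas HSPH1 stands at 95.3 and 79.8 TPM against 70.4 TPM.

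The comparison of shKLF5 with scramble asks what became of these genes when KLF5 was knocked down. With TMM scaling, 9 of the 10 genes had lower values in each shKLF5 library than in scramble, as did 36.5% of the 20629 genes tested, and 0 were higher in both, where 37.9% of genes were. HSPA1A was higher in library 1 and lower in library 2. All 10 genes passed the filter on low counts. Abundant genes were lower in general: of 3501 genes with a mean of at least 50 CPM (counts scaled by TMM library size), 59.6% were lower in both libraries, beside all 9 of the chaperone genes that reached that level. The median log2 fold change was -0.69 for the 10 genes, 0.04 for all genes and -0.24 for the abundant ones. In library 1 alone these medians were -0.55, -0.0031 and -0.22, and in library 2 alone -0.90, 0.03 and -0.27.

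By edgeR's quasi-likelihood test with Benjamini-Hochberg adjustment, 0 of the 10 genes reached an adjusted p under 0.05, as did 0.0% of the 20629 genes tested, and the adjusted p of the 10 ran between 0.525 and 0.984. Without adjustment 1 of the 10, HSPA1B, had a p under 0.05 on the lower side, where 3.5% of genes did; 1893 genes, 9.18%, did on either side. DESeq2 called 116 genes and edgeR's legacy fit 21, none of them among the 10. The values below are therefore descriptions of these libraries, and no gene is said to have changed.

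The direction of several values rests on the scaling. With library size alone 5 of the 10 were lower in both libraries, where 12.5% of genes were, and 1, HSPH1, was higher in both, where 65.2% of genes were. Among abundant genes 19.2% were lower and 54.1% higher in both under that scaling, beside 5 and 1 of the 9 chaperone genes at that level. On log2(TPM + 1) 5 of the 10 were lower, where 11.3% of genes were, and 1 higher, where 65.2% were. Median-ratio size factors gave 9 lower and 0 higher (37.0% and 37.6% of genes), and length-scaled counts 9 and 0 (36.2% and 37.5%). Scaling by library size put the 10 genes at a median of -0.27, beside 0.47 over the 20629 tested. The distance of the 10 from the median of all genes was -0.73 with TMM and with library size alone. From the median of abundant genes it was -0.45 with both. Passing from TMM to library size shifts all genes by nearly the same amount, so these distances had to match. On log2(TPM + 1) the distances were -0.52 from all genes and -0.49 from abundant genes.

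**Figure D3:**
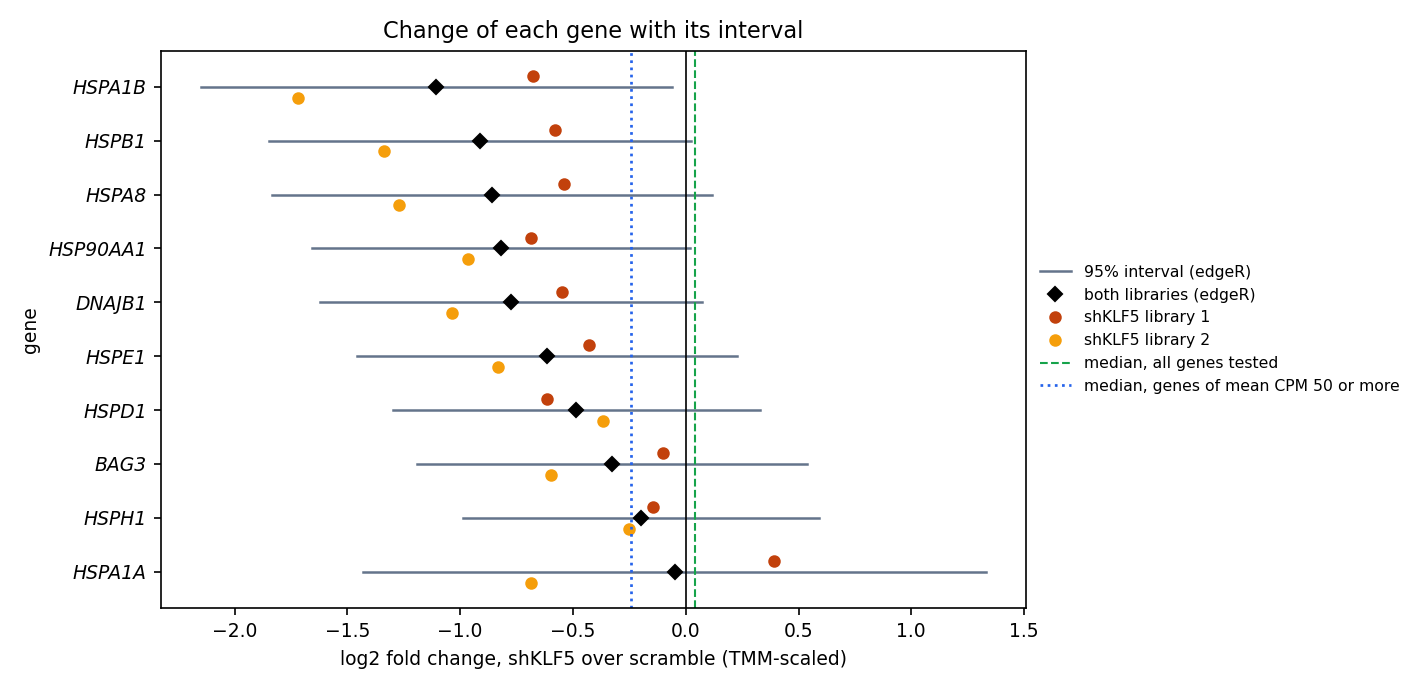
Log2 fold change of each gene, shKLF5 over scramble (x axis, TMM-scaled): diamonds with lines are edgeR's estimate and its 95% interval over both libraries, and circles are the single libraries. Of the 10 intervals, that of HSPA1B, -2.15 to -0.06, is the 1 that does not include 0.

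The inducible HSP70 genes lie side by side in the major histocompatibility complex, have no introns, and are the classical readout of the heat shock response. HSPA1B (ENSG00000204388; GRCh38 chromosome 6, 31827735 to 31830255) had 6857 and 3236 counts in shKLF5 libraries 1 and 2 against 8142 in scramble, or 97.6 and 44.1 TPM against 112 TPM. Both shKLF5 libraries lay below scramble, library 2 by far the more. Its log2 fold change was -1.11 (SE 0.45; 95% interval from -2.15 to -0.06), that is 46.4% of the scramble level, with -0.68 in library 1 and -1.72 in library 2, and edgeR's adjusted p was 0.525.

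HSPA1A (ENSG00000204389; chromosome 6, 31815464 to 31817946) was listed far lower, at 211 and 96 counts in shKLF5 against 119 in scramble. In TPM this was 3.27 and 1.46 against 1.82, so scramble lay between the shKLF5 libraries, and the log2 fold change was -0.05 (SE 0.60; 95% interval from -1.43 to 1.33). The coding sequences of the pair in GENCODE 29 differ at 4 of 1923 bases, and 73.6% of the words of 31 bases in HSPA1A transcripts also occur in those of HSPA1B. How the authors' estimation divided reads between them cannot be checked from the tables. HSPA1A took 2.99% of the counts of the pair in library 1 (95% Wilson interval 2.61 to 3.41) and 2.88% in library 2 (2.37 to 3.51), against 1.44% in scramble (1.21 to 1.72). These intervals cover counting error only.

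The sum of the pair avoids that division, but not a division of reads between the pair and other genes. Of the same kind of sequence words, 34.7% of those of HSPA1A and 35.8% of those of HSPA1B also occur in AL671762.1. How reads were divided between the pair and that gene was not tested. HSPA1A and HSPA1B together had 7068 and 3332 counts in shKLF5 against 8261 in scramble, or 101 and 45.6 TPM against 113 TPM. The log2 fold change of the sum was -1.08 (SE 0.45; 95% interval from -2.13 to -0.04), with -0.66 in library 1 and -1.70 in library 2. The gap between the shKLF5 libraries, -1.04, was close in size to the difference from scramble, and edgeR's adjusted p was 0.531.

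HSPA8, the constitutive HSP70 of the cytosol that also uncoats clathrin vesicles, was the most abundant of the 10 in every library. HSPA8 (ENSG00000109971; chromosome 11, 123057489 to 123063230) had 40014 and 23398 counts in shKLF5 against 43175 in scramble, which is 934 and 534 TPM against 966 TPM. Library 1 was close to scramble before scaling and library 2 well below it. The log2 fold change was -0.86 (SE 0.42; 95% interval from -1.83 to 0.11), with -0.54 and -1.27 in libraries 1 and 2.

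DNAJB1, the J protein HSP40 that loads clients onto HSP70, had values of much the same shape. DNAJB1 (ENSG00000132002; chromosome 19, 14514770 to 14529770) had 3620 and 2509 counts in shKLF5 against 3934 in scramble, or 68.2 and 44.9 TPM against 69.1 TPM. Its log2 fold change was -0.77 (SE 0.37; 95% interval from -1.62 to 0.07), or -0.55 and -1.04 in libraries 1 and 2, and both were below scramble.

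Leaving aside HSPA1A, the exchange factors that reset HSP70 stood nearest to scramble with TMM scaling, but with library size alone HSPD1 (-0.056) and HSPE1 (-0.19) were nearer than HSPH1. HSPH1 (ENSG00000120694; chromosome 13, 31134974 to 31162388), the HSP110 exchange factor and disaggregase partner, had 7603 and 6865 counts in shKLF5 against 6247 in scramble, or 95.3 and 79.8 TPM against 70.4 TPM. Both shKLF5 libraries were above scramble in raw counts and in TPM, and slightly below it after TMM scaling, with a log2 fold change of -0.20 (SE 0.34; 95% interval from -0.99 to 0.59). With library size alone the value was 0.23, between the medians of abundant genes, 0.19, and of all genes, 0.47. The TMM value also lay between those medians, which were then -0.24 and 0.04.

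BAG3, an exchange factor that with HSPB8 directs aggregated clients to autophagy, was split between the libraries in raw counts and TPM and lower in both with TMM. BAG3 (ENSG00000151929; chromosome 10, 119651370 to 119677819) had 3362 and 2316 counts in shKLF5 against 2676 in scramble, or 49.4 and 33.2 TPM against 38.4 TPM, so that scramble lay between the shKLF5 libraries. Its log2 fold change was -0.33 (SE 0.37; 95% interval from -1.19 to 0.54) with TMM, or -0.10 and -0.60 in libraries 1 and 2, and 0.10 over both with library size alone. No transcript of another gene shared a word of 31 bases with BAG3, so its value does not depend on paralogs.

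HSP90AA1, the inducible cytosolic HSP90, had the narrowest gap between the shKLF5 libraries among the genes with log2 fold changes under -0.7. HSP90AA1 (ENSG00000080824; chromosome 14, 102080738 to 102139699) had 25725 and 20522 counts in shKLF5 against 30671 in scramble, or 272 and 211 TPM against 312 TPM. Both libraries were lower, and the log2 fold change was -0.82 (SE 0.36; 95% interval from -1.66 to 0.02), with -0.68 and -0.97 in libraries 1 and 2. HSP90AA1-201, in which the printed units lie downstream of the start, carried 98.9% and 98.4% of the counts in shKLF5 against 98.8% in scramble.

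HSPB1 encodes HSP27, a small heat shock protein of squamous epithelium that caps actin filaments and holds unfolded clients. HSPB1 (ENSG00000106211; chromosome 7, 76302544 to 76304295) had 10791 and 6190 counts in shKLF5 against 11974 in scramble, or 561 and 307 TPM against 593 TPM. The log2 fold change was -0.91 (SE 0.40; 95% interval from -1.85 to 0.02), with -0.58 in library 1 and -1.34 in library 2. Its transcript HSPB1-203, annotated as a target of nonsense-mediated decay, held 4.64% and 8.53% of the gene's counts in shKLF5 against 3.32% in scramble, while the main coding transcript HSPB1-201 held 78.5% and 73.0% against 81.7%.

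The mitochondrial chaperonin genes HSPD1 (HSP60) and HSPE1 (HSP10) lie head to head on chromosome 2, and the starts of HSPD1-201 and HSPE1-202 are 105 bases apart. HSPD1 (ENSG00000144381; 197486581 to 197516737) had 13399 and 15441 counts in shKLF5 against 15211 in scramble, or 263 and 301 TPM against 294 TPM, so that scramble lay between the shKLF5 libraries in TPM. It was the 1 gene of the 10 with the higher value in library 2, with log2 fold changes of -0.61 and -0.37 in libraries 1 and 2 and -0.48 (SE 0.35; 95% interval from -1.30 to 0.33) over both.

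HSPE1 (ENSG00000115541; 197499994 to 197503457), the lid of the HSP60 chamber, ran the other way between the libraries. It had 2455 and 1801 counts in shKLF5 against 2451 in scramble, or 152 and 109 TPM against 149 TPM. The log2 fold change was -0.62 (SE 0.36; 95% interval from -1.46 to 0.23), with -0.43 and -0.83 in libraries 1 and 2. Whether the pair differed in its response was not tested.

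HSPD1 had 2 transcripts with at least 5% of its counts, which start at different sites, and their balance differed between the groups. HSPD1-201, which starts at 197500274 beside HSPE1, had 6433 and 7855 counts in shKLF5 against 9047 in scramble, or 48.0% and 50.9% of the gene's counts against 59.5%. HSPD1-202, which starts 227 bases further into the gene at 197500047, had 5654 and 5852 counts against 4587, or 42.2% and 37.9% against 30.2%. Both shKLF5 libraries, set against the same scramble library, lay on the same side of it for both transcripts. The printed run of units in HSPD1 lies just upstream of the start of HSPD1-202 and downstream of that of HSPD1-201. Whether these units bear on the balance was not tested. In TPM the share of HSPD1-202 was 31.5% and 27.3% against 22.0%. The partner gene showed no such split, since HSPE1-202 held 45.3% and 48.2% of HSPE1 counts in shKLF5 against 46.8% in scramble. Shares rest on how reads common to both transcripts were divided, no test across replicates was made, and the Wilson intervals of these shares, for counting error only, were no wider than 2.31 percentage points each way.

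HSPA8 also differed in its transcripts. HSPA8-201 held 67.9% and 69.1% of the counts in shKLF5 against 75.2% in scramble, and HSPA8-221, whose start is that of the printed window, 18.5% and 16.6% against 14.6%. HSPA8-220, annotated as a processed transcript of 465 bases and not as coding, held 6.09% and 6.39% against 6.16%. In TPM its share was 28.9% and 29.5% against 29.5%, so the TPM of HSPA8 rests in part on this short transcript. HSPA8-222 was picked out once its values were known and had 1320 and 724 counts in shKLF5 against 91 in scramble, or 3.30% and 3.09% of the gene against 0.211%. It is a coding transcript in GENCODE 29 with its start inside the gene, at 123060386. In HSPH1, HSPH1-202 held 7.01% and 7.21% against 4.61% and HSPH1-201 86.7% and 86.2% against 90.4%.

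**Figure D4:**
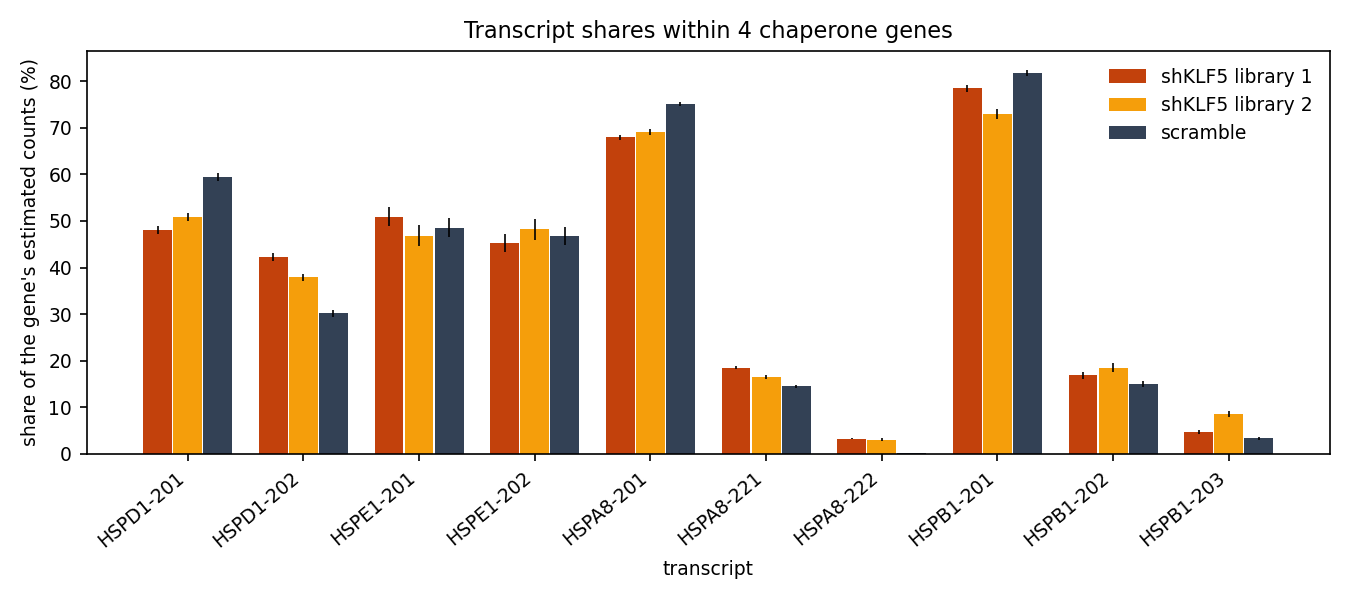
Share of each gene's estimated counts (y axis, percent) on transcripts of HSPD1, HSPE1, HSPA8 and HSPB1 in shKLF5 library 1, shKLF5 library 2 and scramble, with 95% Wilson intervals for counting error. HSPD1-201 and HSPA8-201 are lower and HSPD1-202 higher in both shKLF5 libraries, and the HSPE1 transcripts are not split that way.

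Heat shock factors and their listed regulators had no common direction with TMM scaling. HSF1, the master regulator of the heat shock response, had 4088 and 4236 counts in shKLF5 against 2445 in scramble. In TPM this was 79.2 and 80.3 against 46.9. Its log2 fold change was 0.36 (SE 0.35, edgeR adjusted p 0.760) with TMM and 0.79 with library size alone. HSF2 had 782 and 816 counts against 688 and stood at -0.19 (SE 0.38) with TMM and 0.24 with library size alone. IER5, which promotes the activity of HSF1, stood at 0.60 (SE 0.38) with 2231 and 1770 counts against 992, and HSF4, a factor of the lens, at -0.71 (SE 0.39). HSF2BP stood at 1.11 with 109 and 149 counts against 45, and the mitotic kinase PLK1 at -0.50. Of the 10 factors and regulators in this list 4 were lower and 5 higher in both libraries, the median being 0.22 (1 and 8 with library size alone). For all genes tested the shares were 36.5% lower and 37.9% higher (12.5% and 65.2% with library size alone). In this list 0 genes passed edgeR's test over all genes.

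Of 22 co-chaperones of HSP70 and HSP90, 18 had lower values in both libraries and 1 a higher one, the median being -0.34. Among all genes 36.5% were lower and 37.9% higher, with a median of 0.04. Of the abundant genes, those with a mean of at least 50 CPM, 59.6% were lower and 16.7% higher, with a median of -0.24. With library size alone 6 co-chaperones were lower, 13 higher and the median 0.086. Among all genes 12.5% were then lower and 65.2% higher, with a median of 0.47, and among abundant genes 19.2% and 54.1%, with a median of 0.19. Whether the list differed from genes of like abundance was not tested. The immunophilins of HSP90, FKBP5 and FKBP4, stood at -1.17 (SE 0.39) and -0.79 (SE 0.38), PTGES3, the p23 protein that closes the HSP90 clamp, at -0.78 (SE 0.34), and BAG2 at -0.89 (SE 0.41). FKBP5 had 423 and 385 counts in shKLF5 against 683 in scramble. Of the other HSP90 genes 3 of 3 were lower in both, with HSP90AB1, the constitutive cytosolic form, at -0.73 (SE 0.35), HSP90B1 of the endoplasmic reticulum at -1.01 (SE 0.41) and TRAP1 of mitochondria at -0.38 (SE 0.34). With library size alone TRAP1 turned to 0.053, and 2 of the 3 remained lower in both.

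The chaperonin TRiC folds actin and tubulin, which prefoldin hands to it. Of 14 genes of the pair 12 had lower values in both libraries and 2 higher ones, the median being -0.46. With library size alone 5 were lower, 5 higher and the median -0.031. The shares of all genes were 36.5% lower and 37.9% higher, or 12.5% and 65.2% with library size alone. Those of abundant genes were 59.6% and 16.7% (median -0.24), or 19.2% and 54.1% (median 0.19) with library size alone. CCT5 had 6756 and 7466 counts in shKLF5 against 8549 in scramble and stood at -0.67 (SE 0.34). CCT4 stood at -0.91 (SE 0.47) and the prefoldin subunit VBP1 at -1.06 (SE 0.43), while the subunit PFDN2 stood at 0.88 (SE 0.46) with 1067 and 1764 counts against 583. Of 24 other HSF1 target genes, a list that shares members with the others, 16 were lower and 4 higher in both (5 and 12 with library size alone), the median was -0.36 (0.071), and CACYBP stood at -0.63 (SE 0.35).

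Other classes were split. So were all genes tested, with 36.5% lower and 37.9% higher in both (12.5% and 65.2% with library size alone). Of 20 J proteins 9 were lower and 7 higher in both libraries (1 and 14 with library size alone), the median being -0.05. DNAJB9, an ER protein of the unfolded protein response, stood at 0.99 (SE 0.48) and DNAJB2 at 1.11 (SE 0.55), with 1354 and 3127 counts against 787. DNAJA4 had 37 and 112 counts against 19, and DNAJC12 24 and 14 against 1. Of 12 other HSP70 and HSP110 genes tested, out of 13, 5 were lower and 2 higher in both (median -0.16; with library size alone 3, 6 and 0.27). HSPA12A stood at -1.17 (SE 0.46), HSPA14, which acts at the ribosome, at -0.76 (SE 0.44) and HYOU1, the ER exchange factor, at 0.77 (SE 0.54). Of 7 small heat shock proteins tested, out of 9, 2 were lower and 4 higher in both (median 0.45; with library size alone 2, 5 and 0.88), mostly at low counts. HSPB2, a muscle form, had 75 and 96 against 20 counts and HSPB7 18 and 16 against 2. Those lower were HSPB11, a ciliary transport subunit, at -1.10 (SE 0.44), and HSPB3, with 191 and 65 counts against 239.

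Beyond HSPD1 and HSPE1, mitochondrial folding and quality control genes showed no common direction. Of 15 genes 5 were lower and 2 higher in both libraries and 8 went opposite ways, the median being -0.05 (with library size alone 2 lower, 7 higher and 0.38). All genes tested stood at 36.5% lower and 37.9% higher (12.5% and 65.2% with library size alone). GRPEL1, the exchange factor of mitochondrial HSP70, stood at -0.51 (SE 0.37) and the inner membrane protease subunit AFG3L2 at -0.54 (SE 0.35). LONP1, the matrix protease, had 5314 and 10192 counts in shKLF5 against 4145 in scramble, or 0.50 (SE 0.46), with -0.07 in library 1 and 0.91 in library 2.

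Genes of the autophagy route that BAG3 feeds were divided too. Of 11 genes 4 were lower and 5 higher in both libraries, the median being 0.27 (with library size alone 0 lower, 8 higher and 0.70). Over all genes tested 36.5% were lower and 37.9% higher (12.5% and 65.2% with library size alone). SQSTM1, the receptor p62 for ubiquitinated cargo, had 11168 and 26583 counts in shKLF5 against 7401 in scramble and a log2 fold change of 0.95 (SE 0.55), with 0.16 in library 1 and 1.46 in library 2. The autophagosome proteins MAP1LC3B, at 0.94 (SE 0.48), and GABARAPL1, at 0.81 (SE 0.36), were also higher by value, while STUB1, the ubiquitin ligase CHIP that binds HSP70, stood at -0.44 (SE 0.38). Over the 10 lists 0 genes passed edgeR's test over all genes, and the lists overlap, so their counts do not add.

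**Figure D5:**
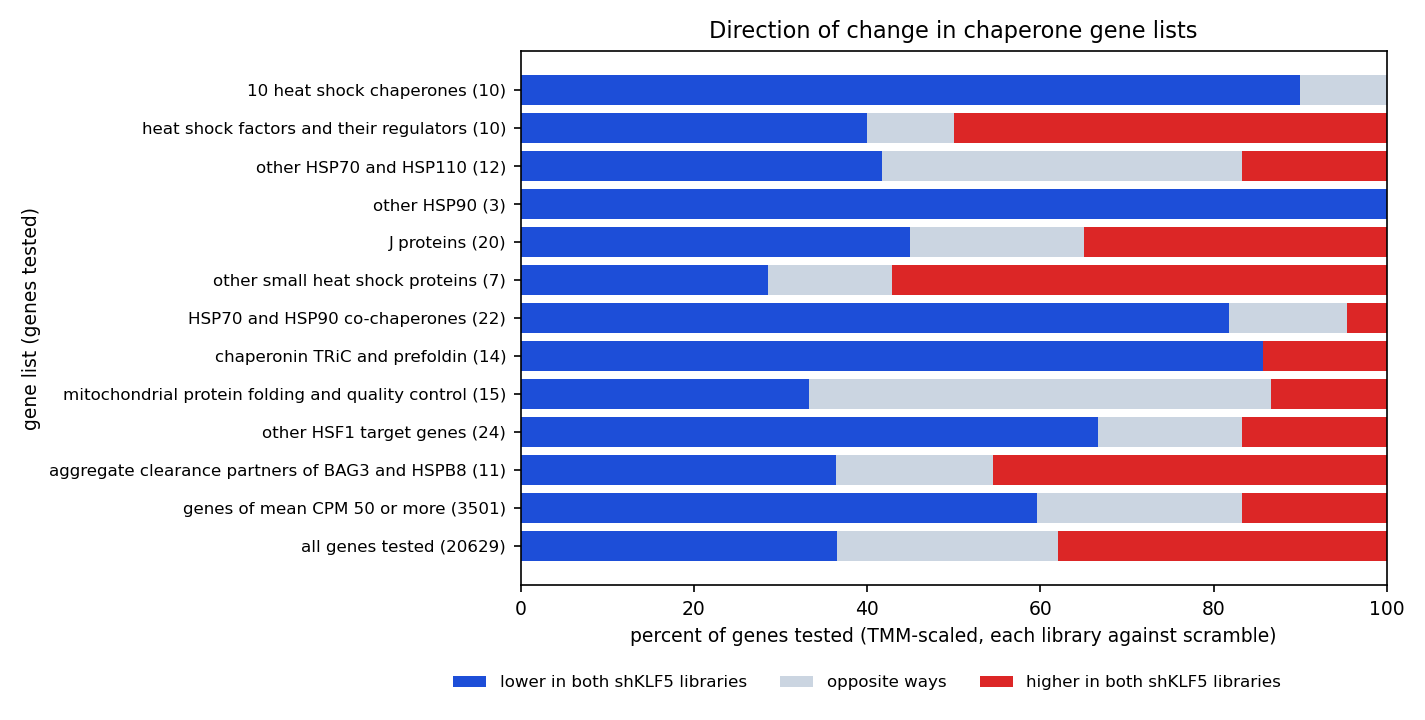
Percent of the genes tested in each list (x axis; number tested in parentheses) that were lower in both shKLF5 libraries, went opposite ways, or were higher in both, TMM-scaled, with the same for genes of mean CPM 50 or more and for all genes. The 10 chaperones have 9 genes lower in both, beside 36.5% of all genes and 59.6% of the abundant genes.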

How the data were processed

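The deposited estimated counts are per transcript and not normalised, and the deposited TPM, per the file headers, stand beside length and effective length in bases (other columns). Kallisto and DESeq2, with the build hg19, are named in the submitters' processing notes. Which transcripts were indexed, and whether strand was used, is not given in the sources used here. Of 196354 transcripts, 181857 (92.62%) matched GENCODE 29 by identifier; coordinates are its GRCh38 ones. The 3.05% to 3.42% of counts on unmatched transcripts stayed out.

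Counts were summed per gene, rounded, and filtered by filterByExpr, and edgeR 4.0.16 under R 4.3.3 then ran its quasi-likelihood F test with TMM scaling and 1 residual degree of freedom over 20629 genes, threshold 0.05. TMM factors were 1.11, 1.10 and 0.82 for shKLF5 1, shKLF5 2 and scramble. Single-library log2 values used a prior count of 2. The summed HSP70 pair replaced both genes in a second fit. The edgeR test was tried on simulated counts, with large changes set in abundant genes. Their spread was smaller than the common coefficient of variation of 32.9% in these data, so the trial does not show how the test performs here. Alternatives used limma 3.58.1 and DESeq2 1.42.0 among others. The 10 genes and all lists were chosen with earlier results of these data known. Named list genes are HSF1, HSF2 and up to 4 per list with the smallest edgeR p. Likeness of pattern was not measured, as 3 libraries do not allow it.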

Additional observations from a re-analysis of the deposited data

How the results depend on the processing

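Genes called numbered 0 by edgeR's main test, 116 by DESeq2 and 21 by the legacy fit, and 0 under the 5 other alternatives fitted for that count. None of the 10 chaperone genes had an adjusted p under 0.05 under any alternative (0.441 to 0.999). Genes lower in both shKLF5 libraries numbered 9 with TMM, median ratios or length-scaled counts, but 5 with library size alone and 5 on log2(TPM + 1), and 1, HSPH1, was then higher in both. Values turned positive, in the order library size alone, log2(TPM + 1) and log2(TPM + 0.1), for HSPA1A (0.38, 0.20, 0.26), HSPH1 (0.23, 0.31, 0.31) and BAG3 (0.10, 0.078, 0.079); with library size alone HSF2 (0.24) and TRAP1 (0.053) did too. These scalings do not remove the shift of the median gene. Leaving out 1 shKLF5 library, with no test, gave HSPA1A values between -0.68 and 0.39 and the summed HSP70 pair values between -1.70 and -0.66. The other 90 of 100 values of the 10 genes kept their direction. List genes and KLF5 were rerun under 3 alternatives chosen after seeing the data. Transcript shares moved beyond counting error in TPM in 56 of 66 values, since TPM weights short transcripts more. No paired analysis was possible because scramble has 1 library and shares no second number.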

Other observations

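Retrotransposed copies took few of the estimated counts of these genes. The 17 HSPA8 pseudogenes listed under the gene's own name held 15 and 31 counts in shKLF5 against 12 in scramble, and the 17 of HSPD1 40 and 20 against 11. The 26 HSPE1 pseudogenes held 22.5 and 50.5 against 13.3, which is 0.918% and 2.81% of the gene's own counts in shKLF5 against 0.543% in scramble. HSPE1-MOB4, a readthrough transcript of HSPE1 with its neighbour, had 73.8 and 93.8 counts against 115. HSPA1L, the testis HSP70 that lies head to head with HSPA1A on the other strand, had 82 and 63 counts against 26. It ends at 31815065 and so does not overlap HSPA1A, which begins at 31815464. Of the words of 31 bases in HSPA1A transcripts, 110 (4.4%) also occur in those of HSPA1L. How such reads were divided was not tested.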
